A study of Rattus norvegicus with 10 samples.

Results

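The genes described here encode voltage-gated calcium channels, the channels that release calcium from internal stores, calmodulin and the calmodulin-dependent protein kinases (CaMK). They were chosen by gene symbol, with earlier results of these data known. The rule took the families *Cacna1*, *Cacna2d*, *Cacnb*, *Cacng*, *Ryr*, *Itpr*, *Calm*, *Camk2*, *Camk1*, *Camk4* and *Camkk*. Of the 12828 genes of the authors' deposited table, 38 met the rule, of which 37 are reported and called members below. RNA was taken from the arcuate nucleus (ARC) of the hypothalamus of Wistar rat dams immediately after birth, 5 of them fed a diet with 5X folic acid (5X-FA) and 5 fed 5X methylfolate (5X-MTHF) during pregnancy. The ARC was dissected free hand from frozen slices, so each library holds all cell types of the piece, and a level cannot be assigned to one of them. No age of the dams is given in the sources used here.

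The values below describe the piece dissected as ARC, pooled over these dams, and not the effect of the diet. The columns with 1 value per library carry running numbers that match no sample label, and they were used in no step. The fold changes and *p*-values of the table are the authors' own comparison and were not used either. What remained for each gene was 1 log CPM value, in which CPM is read counts scaled to a common library size. It is read here as the authors' average log2 CPM over all libraries, and the name of its column is the only source for this reading. The value is pooled, without a spread between dams, and the depth of the libraries is unknown from it. CPM is not divided by transcript length, so a higher CPM means more reads and not necessarily more transcripts. Every order of genes below is an order of reads.

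Calcium enters a neuron through voltage-gated channels when the membrane depolarises. The pore is formed by an alpha1 subunit, while beta and alpha2delta subunits bring the channel to the membrane and shape its gating. Ryanodine and inositol trisphosphate (IP3) receptors release calcium from the endoplasmic reticulum. Calmodulin binds the calcium and activates CaMKII, a kinase abundant at synapses, and a cascade in which CaMKK phosphorylates CaMKI and CaMKIV. In the hypothalamus these proteins serve firing, peptide release and activity-dependent transcription, as they do in other neurons.

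All 37 members lay well inside the range of genes kept in the table. Their average log2 CPM ran from 4.47 for *Itpr2* to 9.30 for *Calm3*, and 0 of them were below 4. The median of the members was 6.64, with quartiles of 6.03 and 7.38, compared with a median of 4.94 and quartiles of 3.65 and 6.18 for all genes. Of the members, 33 were above the median of all genes and 4 below it, namely *Itpr2*, *Cacng5*, *Camk4* and *Camkk2*. Above the upper quartile of all genes stood 25 members, and 10 were at or above the 90th percentile. Summed as CPM, the members took 5320 CPM, which is 0.531% of the reads of the table, whereas they make up 0.288% of its genes.

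**Figure D1:**
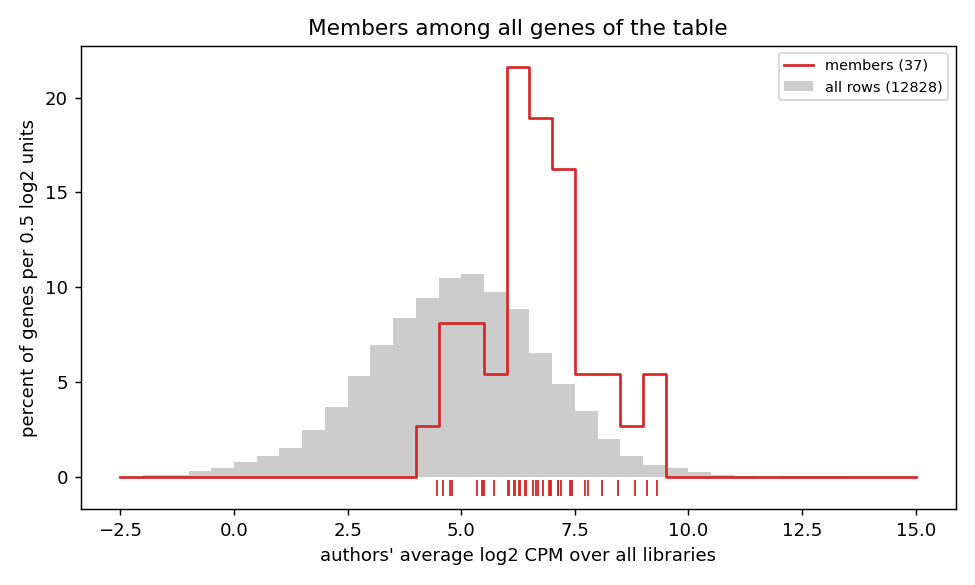
Percent of genes (y axis) in bins of 0.5 units of the authors' average log2 CPM (x axis), for all 12828 genes (grey bars) and the 37 members (red line, with 1 tick per member). The members lie to the right of the bulk of the genes, with a median of 6.64 against 4.94.

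The reads were concentrated in CaMKII and in the calmodulin genes *Calm2* and *Calm3*. The 4 CaMKII genes summed to 1318 CPM, or 24.8% of the reads of the 37 members, and *Calm2* and *Calm3* to 1082 CPM, or 20.3%. By contrast, the 8 pore subunits of voltage-gated channels together took 865 CPM (16.3%) and the 4 release channels 532 CPM (10.01%). The 13 genes of the alpha2delta, beta and *Cacng* classes took 1165 CPM (21.9%). Of this, alpha2delta subunits had 408 CPM (7.68%), beta subunits 341 CPM (6.40%) and the *Cacng* genes, which encode regulators of AMPA receptors, 416 CPM (7.81%). The pore subunits and release channels had similar medians, with an average log2 CPM of 6.69 and 6.74. The medians were 7.18 over alpha2delta, 6.53 over beta and 5.90 over the *Cacng* genes.

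**Figure D2:**
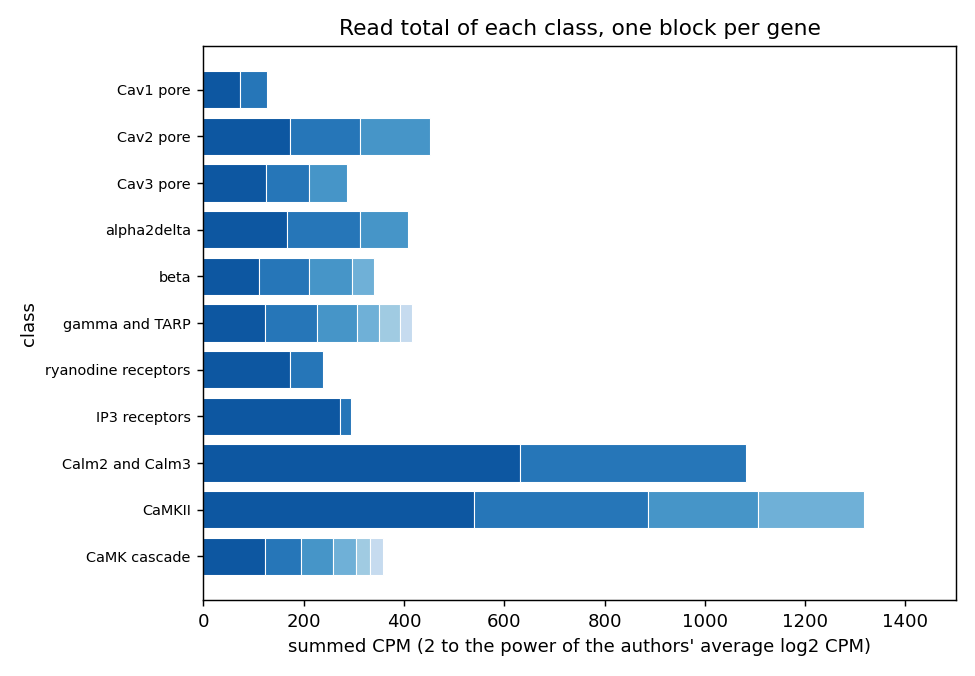
Summed CPM of each class (x axis, from 0), with 1 block per gene, darkest for the gene with most reads. CaMKII reaches 1318 CPM and *Calm2* with *Calm3* 1082 CPM, and each of the other classes stays at or below the 452 CPM of the Cav2 pore subunits.

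Among the pore subunits, the Cav2 genes collected the most reads. These channels carry the P/Q-, N- and R-type currents, of which the first and second trigger transmitter release at most synapses. *Cacna1b* (N-type) had an average log2 CPM of 7.42, *Cacna1a* (P/Q-type) 7.13 and *Cacna1e* (R-type) 7.12. This was the narrowest class, with only 0.30 log2 units between its ends, and all 3 of its genes were above the 88th percentile of the table.

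The low-voltage-activated Cav3 genes, whose T-type currents open near the resting potential and favour burst firing, came next with 287 CPM. *Cacna1g* stood at 6.96, *Cacna1i* at 6.41 and *Cacna1h* at 6.27 log2 CPM. *Cacna1i* was the 1 member that the annotation used by the authors does not class as protein-coding but as a processed transcript. The L-type Cav1 genes had the fewest reads of the pore subunits, with 6.19 for *Cacna1d* and 5.73 for *Cacna1c*, both of which encode channels of neurons and endocrine cells. *Cacna1f* and *Cacna1s*, known from retina and skeletal muscle, had no row in the table under these symbols.

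Position and span of the pore genes are those of the authors' table on Rnor_6.0. *Cacna1b* lies on chromosome 3 from 1740024 to 1924827, *Cacna1a* on chromosome 19 from 25526751 to 25749550 and *Cacna1d* on chromosome 16 from 6112150 to 6405117. Long loci were common in the whole set. Of the members, 20 (54.1%) spanned more than 100 kb, compared with 13.4% of all genes, and the median span was 108 kb against 21.5 kb. The longest was *Cacna2d3* with 924 kb.

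The alpha2delta subunits are extracellular proteins that raise channel number at the membrane, and *Cacna2d1* and *Cacna2d2* are the known binding sites of gabapentin. *Cacna2d2* had 7.38 log2 CPM, *Cacna2d1* 7.18 and *Cacna2d3* 6.58. The reads of the 3 genes were thus of the order of those of the Cav2 pore genes, with 408 CPM against 452 CPM. *Cacna2d4* had no row in the table under this symbol.

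The cytoplasmic beta subunits were led by *Cacnb3* with 6.80, followed by *Cacnb1* with 6.64 and *Cacnb4* with 6.42 log2 CPM. *Cacnb2*, the main beta subunit of heart muscle, was lowest with 5.46 and stood apart from the other 3. All 4 known beta genes had a value.

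The *Cacng* genes of the table are the 6 that encode transmembrane AMPA receptor regulatory proteins (TARPs), which act on glutamate receptors of the AMPA type. *Cacng7* had 6.95, *Cacng4* 6.70 and *Cacng2* (stargazin) 6.29 log2 CPM. *Cacng8*, abundant in hippocampus, and *Cacng3*, abundant in cerebral cortex, were lower, with 5.51 and 5.34, and *Cacng5* had 4.60. The class spread over 2.35 log2 units. Some pairs are direct neighbours. *Cacng8* and *Cacng7* lie 24.3 kb apart on chromosome 1, and *Cacng4* and *Cacng5* lie 108 kb apart on chromosome 10, in both cases with 0 other genes of the table between them. Reads differed within both pairs, by 45.5 against 124 CPM in the first and by 104 against 24.2 CPM in the second. *Cacng1* and *Cacng6*, which are not TARPs, had no row in the table under these symbols.

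Both families of release channels were dominated by 1 gene. *Itpr1*, the main IP3 receptor of neurons, had 8.09 log2 CPM and took 92.4% of the reads of its family, while *Itpr2*, known from astrocytes and other glia, had 4.47. This was the widest class, with 3.61 log2 units between its ends. *Ryr2*, the ryanodine receptor of heart and of most brain regions, had 7.43 and took 72.2% of the reads of its family, with *Ryr3* at 6.05. *Itpr3* and *Ryr1* had no row in the table under these symbols. On chromosome 4 *Itpr1* lies from 140247313 to 140580748 and *Itpr2* from 180538389 to 180722358, and *Ryr2* lies on chromosome 17 from 65535403 to 65955606 (Rnor_6.0).

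The calmodulin genes *Calm2* and *Calm3* encode the same protein from separate loci. *Calm3* on chromosome 1, from 78843080 to 78851719, had 9.30 log2 CPM (632 CPM) and was rank 145 of all genes of the table. *Calm2* had 8.81, or 450 CPM, but its locus is uncertain. The table places it on chromosome 15 from 65506874 to 65507968, a span of 1095 bases, next to *Pcdh8* and *Pcdh17*. RefSeq of the later assembly GRCr8 has a *Calm2* gene on another chromosome, between *Epcam* and *Stpg4*. The other 36 members were on the same chromosome in both. Reads of a near-identical copy can be split or lost in counting, and whether this touched the value was not tested. Without *Calm2*, *Calm3* took 13.0% and CaMKII 27.1% of the reads of the members.

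All 4 CaMKII genes were above the 93rd percentile. *Camk2b* had 9.08 and *Camk2a* 8.44 log2 CPM, or 540 and 347 CPM, and both are typical of neurons. *Camk2g* and *Camk2d*, which are also made outside the nervous system, had 7.78 and 7.72. *Camk2a* was also on the list of cortical and hippocampal markers, since excitatory forebrain neurons are its richest source.

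The kinases of the CaMK cascade were far lower. The upstream kinase *Camkk1* led with 6.93 log2 CPM, and its relative *Camkk2*, which also activates AMP-activated kinase in hypothalamic neurons, had 4.81, or 122 against 28.0 CPM. *Camk1* had 6.16, *Camk1d* 6.03 and *Camk1g* 5.47. *Camk4*, a nuclear kinase that phosphorylates the transcription factor CREB, was lowest with 4.75. The locus of *Camk1* overlaps that of *Ogg1* by 331 bases, and *Ogg1* had 2.67 log2 CPM. This was the 1 overlap of a member with another gene of the table.

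**Figure D3:**
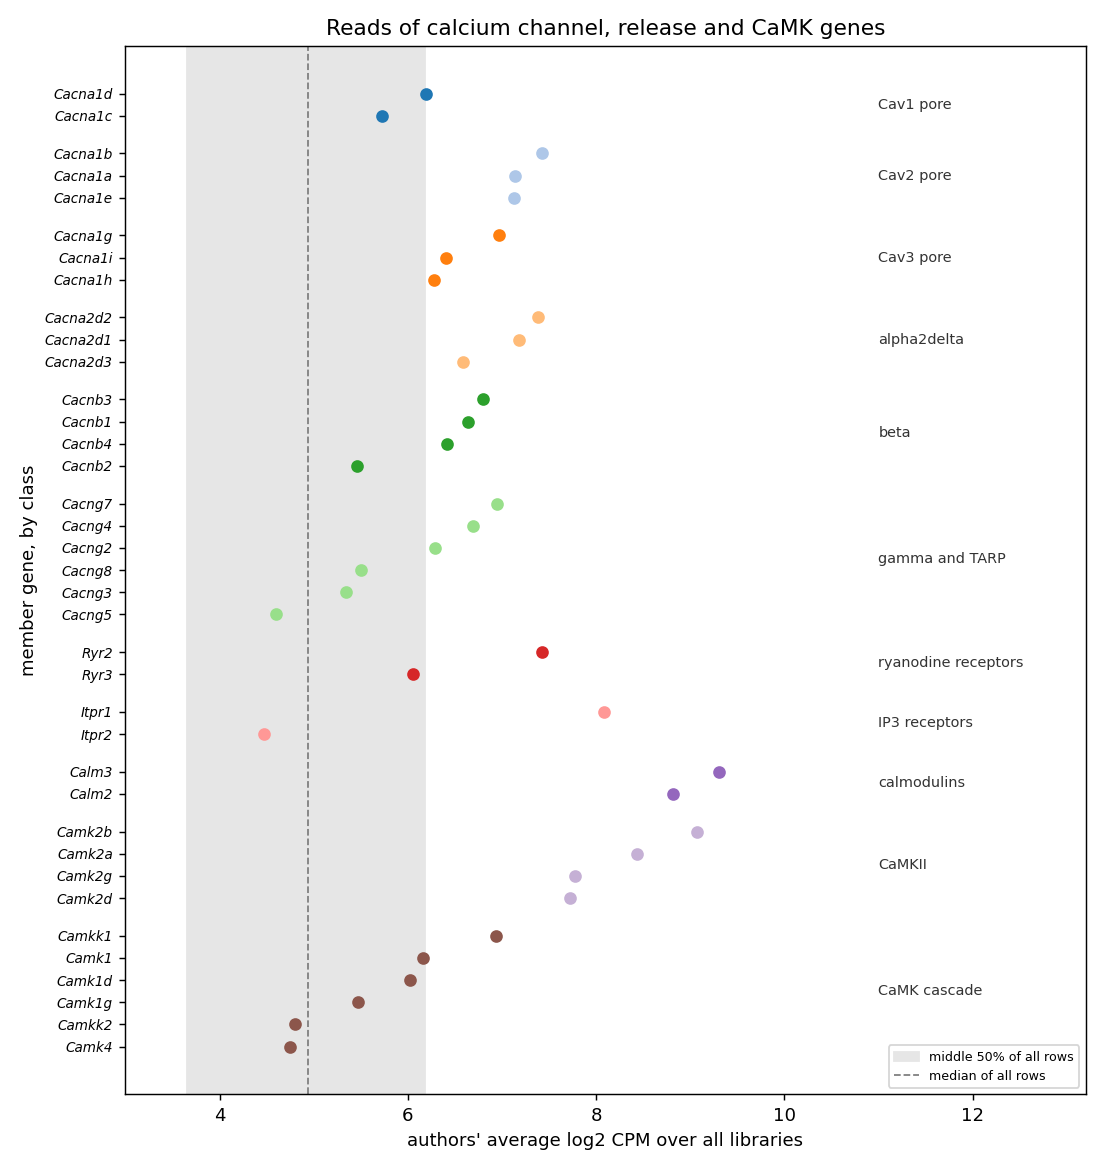
The authors' average log2 CPM (x axis) of each of the 37 members (y axis), grouped by class and ordered within it. The grey band is the middle 50% of all genes and the dashed line their median of 4.94. *Calm3*, *Camk2b* and *Calm2* lie farthest right, and *Itpr2*, *Cacng5*, *Camkk2* and *Camk4* lie left of the line.

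For comparison, a list of 42 other genes of calcium handling was read in the same way, of which 40 had a value. It holds pumps, exchangers, store-operated and mitochondrial channels, calcineurin and inhibitors of CaMKII. Its median was 6.64 log2 CPM, as was that of the members, and 31 of the 40 were above the median of all genes. It reached lower, however, down to 2.97 for *Orai1*, a store-operated channel. *Atp2a2*, the pump that refills the endoplasmic reticulum, had 9.84, and *Ppp3r1*, the regulatory subunit of calcineurin, 8.87. *Camk2n1*, an inhibitor of CaMKII, had 7.59, and *Creb1* had 3.61. *Nalcn*, a sodium leak channel related to the pore subunits, had 7.83, more reads than any of the 8 voltage-gated pore genes.

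The labelled tissue was checked against markers, again by average log2 CPM. Of 12 ARC markers 10 had a value, with a median of 3.22 and a range from 0.08 to 6.02. *Pomc* had 4.67 and *Agrp* 1.42, and *Npy* and *Nr5a2* had no row in the table under these symbols. All 9 striatal markers had a value, with a median of 5.96 and a range from 4.26 to 7.68, and 6 of 8 cortical and hippocampal markers had one, with a median of 5.26 and a range from 2.13 to 8.44. The 5 thalamic markers had a median of 4.79 and ranged from 2.34 to 8.09. Of 4 tanycyte markers 2 had a value, namely *Rax* with 0.08 and *Vim* with 7.32. The 4 oligodendrocyte markers ranged from 7.26 to 12.59 and the 3 astrocyte markers from 5.51 to 10.22. The 4 microglia markers ranged from 4.08 to 6.82, and 2 of 3 endothelial markers had a value, 5.77 and 6.28. Of the 10 ARC markers with a value, 1 was above the median of all genes. Above it were 7 of the 9 striatal, 3 of the 6 cortical and hippocampal and 2 of the 5 thalamic markers. Of the glial markers, 1 of the 4 for microglia, all 3 for astrocytes and all 4 for oligodendrocytes were above it. Markers of other brain regions and of glia thus had reads in the average, and most ARC markers had few. The levels of the members are therefore those of the dissected piece and cannot be read as levels of the ARC alone. Members such as *Camk2a*, *Cacng3* and *Camk4* are known from forebrain neurons, and the part that such tissue had in their values was not tested.

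**Figure D4:**
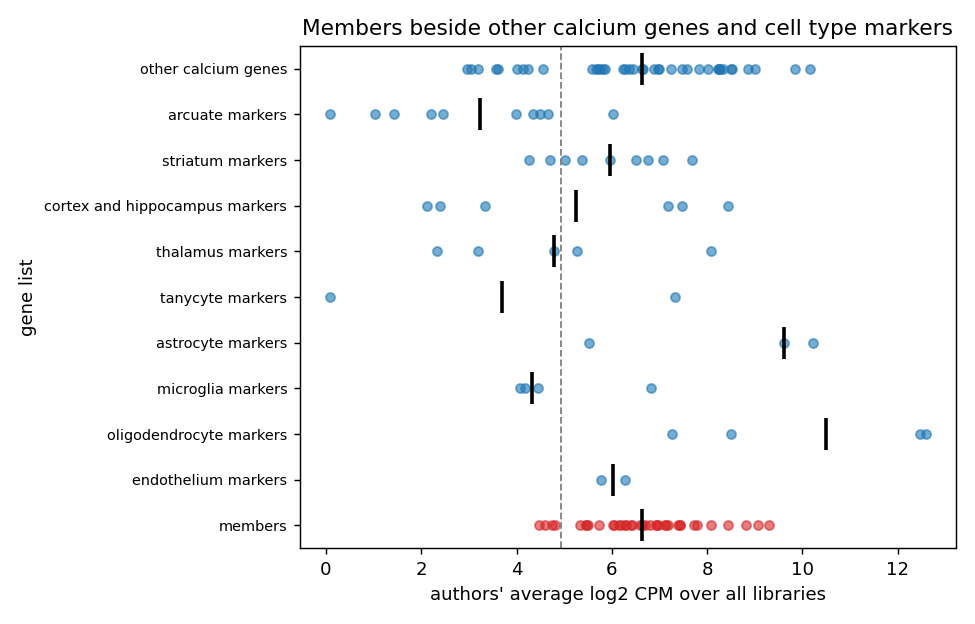
The authors' average log2 CPM (x axis) of each gene (points) of the fixed lists and of the members (y axis), with a black bar at each list's median and a dashed line at the median of all genes (4.94). The members and the other calcium genes (median 6.64 in both) overlap over most of their range, and the ARC markers (3.22) lie lower.

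Sequence upstream of the start site was looked at as a feature that the choice of members did not use. RefSeq windows on GRCr8 matched 26 of the 37 members by symbol, in 30 windows, since 3 genes have more than 1. The 250 bases before each start were searched on both strands. The median GC content was 72.2% in the windows of members, 60.4% in those of genes with a row in the table and 51.2% in all 33469 windows. A GC box (GGGCGG), the element bound by Sp1, was found in 19 of the 30 windows (63.3%), compared with 57.8% of the windows of genes in the table and 30.5% of all windows. Counted by gene, 16 of the 26 members had a GC box in a window. The ratio of observed to expected CpG was 0.6 or more in 63.3%, 67.6% and 33.0%, respectively. The full CREB element (TGACGTCA) was in 0 of the 30 windows, compared with 2.75% of the windows of genes in the table and 1.59% of all windows. A TATA box (TATAAA) was in 1 (3.33%), compared with 6.38% and 12.9%, respectively. A match describes letters, not a bound site.

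Windows of 3 members are shown as examples with and without GC boxes. *Camk2b* had the most reads of the members with a single window, *Cacna1b* the most reads of the pore subunits, and *Camk1g* had no CpG at all. Each line gives the 250 bases before the start, 5′ to 3′ on the strand of the gene, with GC boxes of either strand in capitals.
Camk2b, chr14:85147945-85148194, minus strand, GRCr8: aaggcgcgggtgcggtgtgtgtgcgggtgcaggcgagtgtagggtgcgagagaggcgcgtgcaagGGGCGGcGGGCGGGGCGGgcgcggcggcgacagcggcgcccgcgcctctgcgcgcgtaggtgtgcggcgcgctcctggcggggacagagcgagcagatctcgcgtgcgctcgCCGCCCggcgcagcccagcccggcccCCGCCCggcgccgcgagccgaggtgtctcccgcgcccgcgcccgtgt
Cacna1b, chr3:27944286-27944535, minus strand, GRCr8: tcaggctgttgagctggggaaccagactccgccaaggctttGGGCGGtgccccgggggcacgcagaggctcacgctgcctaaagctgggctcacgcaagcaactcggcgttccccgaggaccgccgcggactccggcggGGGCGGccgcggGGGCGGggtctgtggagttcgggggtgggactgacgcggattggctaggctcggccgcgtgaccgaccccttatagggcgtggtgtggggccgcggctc
Camk1g, chr13:107430231-107430480, minus strand, GRCr8: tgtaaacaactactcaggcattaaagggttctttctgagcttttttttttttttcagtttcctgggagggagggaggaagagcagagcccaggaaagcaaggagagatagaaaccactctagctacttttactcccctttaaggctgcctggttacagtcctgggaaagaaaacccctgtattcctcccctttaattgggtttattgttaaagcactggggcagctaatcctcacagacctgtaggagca

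The window of *Camk2b* holds 5 GC boxes, counting overlapping ones, and 47 CpG, with 80.4% GC. That of *Cacna1b* holds 3 GC boxes and 28 CpG, with 72.0% GC. The window of *Camk1g* holds 0 of both, with 45.2% GC. Both *Camk1g* and *Camk4* of the CaMK cascade had windows with 0 CpG, whereas that of *Camkk1*, the cascade gene with the most reads, had 36. These are single genes set side by side, and no relation between the windows and the reads was tested.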

How the data were processed

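Poly-A RNA libraries of 5 dams per diet were sequenced. Per the labels and the methods, the authors trimmed reads with Trim Galore 0.5.0, aligned them with STAR 2.6.0c to Rnor_6.0 and counted them on Ensembl genes with htseq-count; libraries were strand-specific. The authors deposited an average log2 CPM over all libraries, which is on a log2 scale and is the value used here. As CPM, that is 2 raised to this value, it summed to 1002152 over the 12828 rows. The table also holds the authors' own comparison (fold change, test statistic, *p*-value and its adjusted form) and 10 columns of values per sample whose names match no label. None of these was used, and the planned comparison of the diets was not run. No level was given an error between dams, and no difference was tested.

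Members and lists were chosen with earlier results of these data known. A gene that meets the rule is not reported here and enters no count or sum of the members, and each of the other 37 is named. Percentiles are the share of rows with a lower value. RefSeq symbols matched 37 of 37 members. The percentile calculation and the search for GC boxes were tested on simulated data, and the other calculations were not. Python 3.11.15, numpy 2.4.6, pandas 2.3.3 and matplotlib 3.10.9 were used. Percentiles were also computed over the 12383 protein-coding rows, and results without *Calm2* or *Cacna1i* were added after the data were seen.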

Additional observations from a re-analysis of the deposited data

How the results depend on the processing

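The median percentile of the members was 82.4 over all rows, 81.9 over protein-coding rows, 82.0 without *Calm2* and 82.8 without *Cacna1i*. Over protein-coding rows, 9 of the 37 members moved by more than a 95% binomial interval around their percentile, all downward. The largest move of any member was 1.60 points. The interval treats the genes of the table as random draws and is no error of a level. The count of 9 is therefore no measure of robustness. The shares of the calmodulin genes and of CaMKII in the reads of the members moved from 20.3% and 24.8% to 13.0% and 27.1% without *Calm2*. No paired analysis was possible because the columns of values per library carry no replicate number or diet that matches a label. Those columns were used in no step, so leaving out single dams and the alternatives for pseudocount, filter, scaling, variance model and test were not run. Levels per length were not computed, since no transcript length was used. The authors' title of the table names FPKM (reads scaled by transcript length), but no value per library was used. The depth of the libraries is unknown from the values used.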
